A study of Mus musculus with 5 samples.

Results

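The mitochondrial ribosomal protein genes were taken as every gene whose symbol is Mrps or Mrpl followed by a number and at most a letter. This gave 76 of the 36401 genes in the count tables, 29 with the small-subunit prefix Mrps and 47 with the large-subunit prefix Mrpl, on 17 chromosomes. RNA had been taken from lobe 1 of the liver of BALB/C mice at day 10 of life and sequenced. Mdr2+/- mice, heterozygous for the Mdr2 knockout, gave 3 libraries and Mdr2+/+ mice gave 2. Both genotypes were kept as littermates and came from a knockout line crossed back into the strain, and no treatment is named in the labels for either. The labels give neither the sex of the pups nor which of them shared a litter, and nowhere state in so many words that every library comes from its own animal, so p-values measure only the spread between these samples.

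Mitochondria carry their own ribosome, which translates the few messages encoded in mitochondrial DNA. Those messages specify core subunits of the respiratory chain and of ATP synthase. The RNA of this ribosome comes from mitochondrial DNA, whereas its proteins are encoded in the nucleus, made in the cytosol and imported. Some of these proteins descend from bacterial ribosomal proteins and others were added during the evolution of mitochondria. Hepatocytes are rich in mitochondria.

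Library totals were 12991301 to 17312851 estimated counts in Mdr2+/- and 11944157 to 14644529 in Mdr2+/+ livers. Abcb4, the phospholipid floppase gene formerly named Mdr2, stood at 101, 97.7 and 92.6 CPM (counts scaled to the size and composition of the library) in Mdr2+/- livers and at 162 CPM in both Mdr2+/+ livers. Its log2 fold change, here always Mdr2+/- minus Mdr2+/+, was -0.74 (SE 0.0618; edgeR quasi-likelihood test with Benjamini-Hochberg adjustment, adjusted p = 3.4e-04). Summed over 8 hepatocyte markers, 172100 to 187000 CPM were found in Mdr2+/- and 160000 to 173300 CPM in Mdr2+/+ livers, so markers that define the labelled tissue were abundant in both.

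Mitochondrial ribosomal protein transcripts were slightly less abundant in Mdr2+/- livers, in both subunits and by well under 2-fold. Together they held 2330, 2394 and 2380 CPM in the Mdr2+/- libraries, against 2564 and 2635 CPM in the Mdr2+/+ libraries. All 3 Mdr2+/- sums lay below both Mdr2+/+ sums. All 76 genes passed the filter on low counts, 8 of them fell in Mdr2+/- livers at an adjusted p under 0.05 and 0 rose. Across all 13959 tested genes 5.41% fell and 6.63% rose, and the members' share that fell was 10.5%. That share was not stable: it lay below the share of all tested genes with DESeq2 and in 3 of the 5 fits with a library left out. At an unadjusted p under 0.05, 32 members were lower and 0 higher. The share of all tested genes at that level is not given here, so this count cannot be weighed. DESeq2 called 2 lower (2.63%) and 0 higher, against 3.75% lower and 4.99% higher among the 13347 genes it tested. Scaling by library size alone gave 13 members lower and 0 higher, against 6.71% lower and 5.04% higher over all tested genes. In a bulk sample, fewer cells of a type and less RNA per cell cannot be told apart.

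The shift was shallow and broad. The log2 fold change was below 0 in 68 of the 76 members (89.5%), against 50.4% of all tested genes. Its median was -0.15 over the members, with quartiles at -0.23 and -0.05, and -0.00 over all tested genes. In 45 members every Mdr2+/- library lay below both Mdr2+/+ libraries (59.2%, against 22.7% of all tested genes), and in 4 members every Mdr2+/- library lay above them (22.9% of all tested genes). The SE of a single member had a median of 0.0794.

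**Figure D1:**
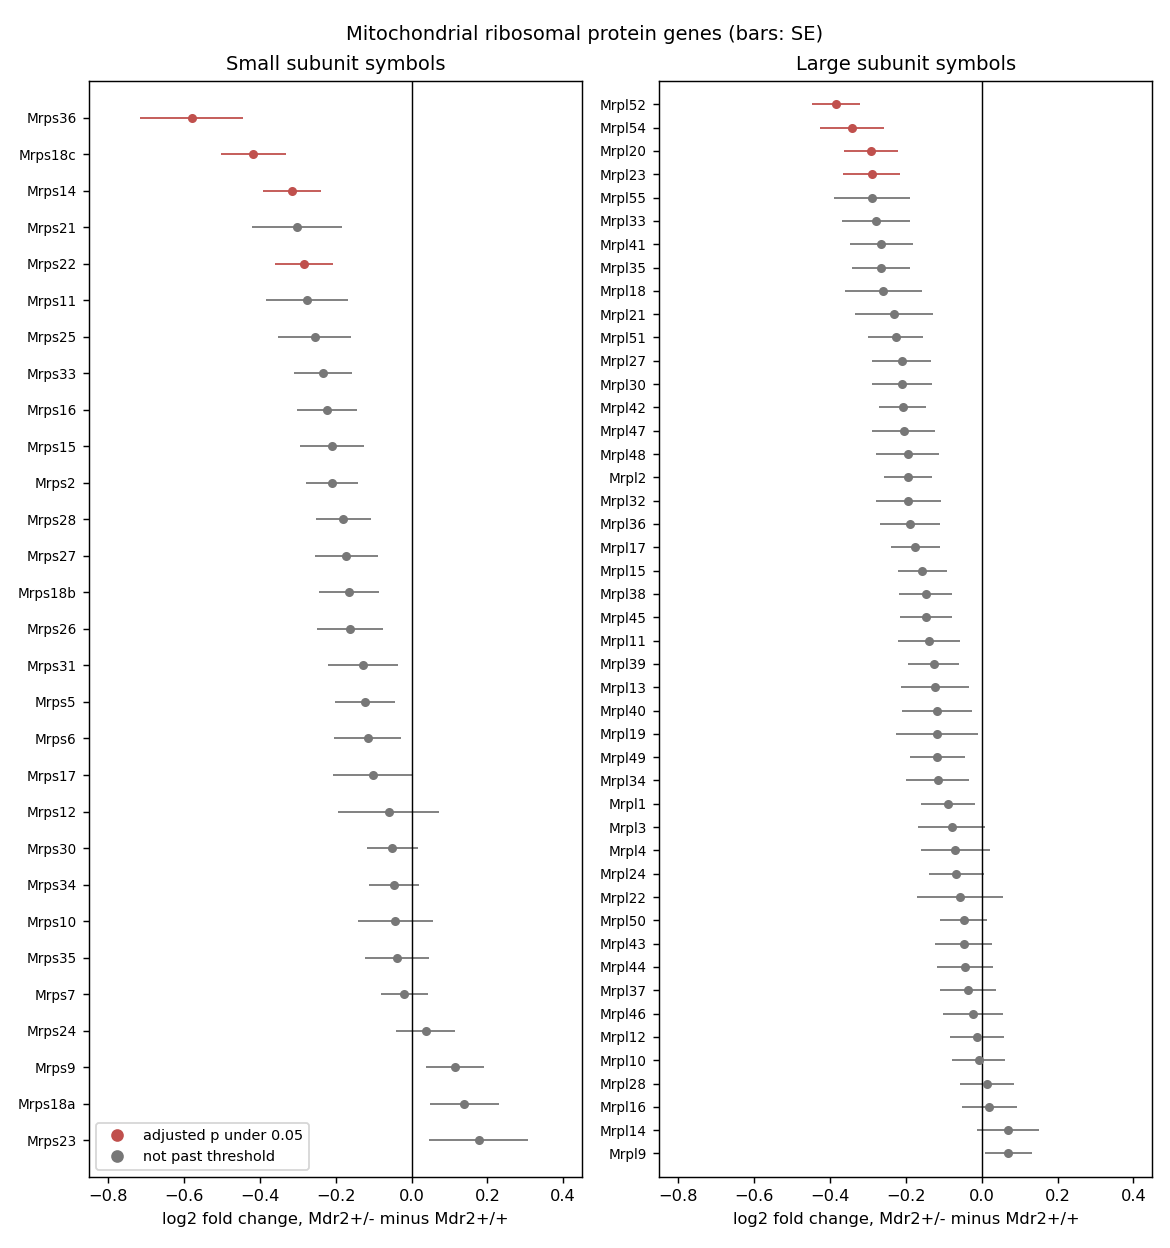
Log2 fold change of Mdr2+/- minus Mdr2+/+ livers for each mitochondrial ribosomal protein gene, split by the subunit in its symbol, with horizontal bars for the SE. Most points lie left of 0, the 8 red points passed the adjusted p threshold, and Mrpl53, which had reads in only 2 libraries, is left out.

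Among the small-subunit genes, 4 fell. Positions are those of the gene in GENCODE M21 on mm10. Mrps18c (ENSMUSG00000016833, chr5:100798627-100804471, plus strand) encodes a relative of bacterial ribosomal protein S18. It had 19.3, 18.7 and 19.1 CPM in Mdr2+/- livers, against 23.9 and 27.0 CPM in Mdr2+/+ livers. The Mdr2+/- libraries were tightly grouped and all below the Mdr2+/+ libraries, which gave a log2 fold change of -0.42 (SE 0.0866, edgeR adjusted p = 0.0158). Mrps14 (ENSMUSG00000058267, chr1:160195215-160202170, plus strand), the counterpart of bacterial S14, had 34.9, 37.7 and 40.5 CPM in Mdr2+/- livers, against 46.4 and 47.8 CPM in Mdr2+/+ livers. Again the genotypes did not overlap (log2 fold change -0.32, SE 0.0769, edgeR adjusted p = 0.0285). Mrps22 (ENSMUSG00000032459, chr9:98588730-98601660, minus strand) encodes a protein without a bacterial counterpart, and mutations of the human gene cause a mitochondrial disease. Its levels were 24.8, 27.3 and 27.6 CPM in Mdr2+/- livers and 32.8 and 32.0 CPM in Mdr2+/+ livers. The Mdr2+/+ pair lay above all Mdr2+/- libraries (log2 fold change -0.28, SE 0.0774, edgeR adjusted p = 0.0436).

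Mrps36 (ENSMUSG00000061474, chr13:100735955-100744659, minus strand) was the small-subunit symbol with the largest fold change among those that fell. Despite its name, the protein is now known as KGD4, a component of the 2-oxoglutarate dehydrogenase complex of the citric acid cycle, and it is not seen in structures of the mitochondrial ribosome. It had 6.36, 6.86 and 8.20 CPM in Mdr2+/- livers, against 10.6 and 10.9 CPM in Mdr2+/+ livers. The lowest Mdr2+/+ library was above the highest Mdr2+/- library, and the log2 fold change was -0.58 (SE 0.135, edgeR adjusted p = 0.0239). The estimated counts could share reads between near-identical genes, and pseudogenes of Mrps36 have rows of their own in the tables, so its level is less certain than the others.

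Of the large-subunit genes, 4 fell as well. Mrpl52 (ENSMUSG00000010406, chr14:54426909-54429756, plus strand), which encodes a protein specific to the mitochondrial ribosome, had 40.7, 41.6 and 40.9 CPM in Mdr2+/- livers, against 52.3 and 55.0 CPM in Mdr2+/+ livers. The libraries of each genotype were close together and far from those of the other (log2 fold change -0.38, SE 0.0632, edgeR adjusted p = 0.00569). Mrpl54 (ENSMUSG00000034932, chr10:81264713-81266934, minus strand), which encodes another mitochondria-specific protein, had 21.3, 22.5 and 24.2 CPM in Mdr2+/- livers and 29.6 and 28.0 CPM in Mdr2+/+ livers (log2 fold change -0.34, SE 0.0835, edgeR adjusted p = 0.0285). Mrpl20 (ENSMUSG00000029066, chr4:155802878-155809975, plus strand) is the counterpart of bacterial L20, which binds ribosomal RNA early in assembly in bacteria. It had 27.2, 28.5 and 26.6 CPM in Mdr2+/- livers and 33.7 and 33.4 CPM in Mdr2+/+ livers (log2 fold change -0.29, SE 0.0717, edgeR adjusted p = 0.0293). Mrpl23 (ENSMUSG00000037772, chr7:142532686-142540747, plus strand) is the counterpart of bacterial L23, which sits at the exit of the peptide tunnel. Its levels were 29.0, 28.6 and 29.7 CPM in Mdr2+/- livers and 37.4 and 33.6 CPM in Mdr2+/+ livers (log2 fold change -0.29, SE 0.0750, edgeR adjusted p = 0.0357). For none of these 4 genes did the genotypes overlap.

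**Figure D2:**
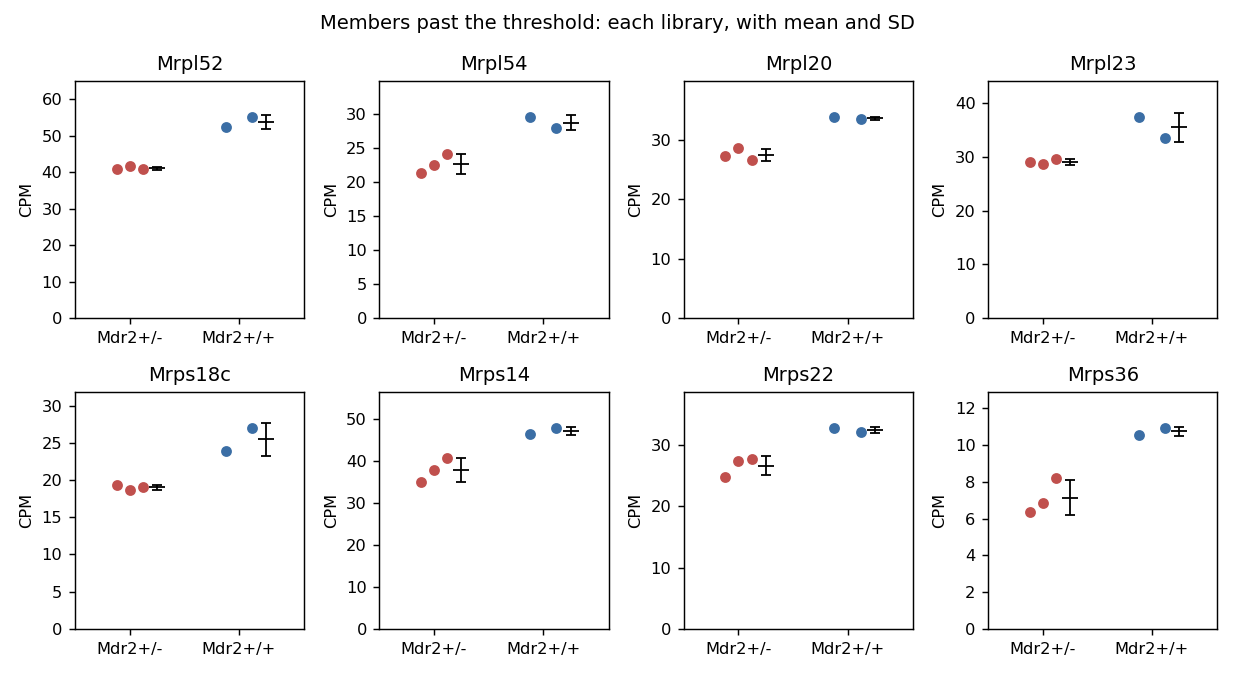
CPM of the 8 mitochondrial ribosomal protein genes that fell, with a point for each library (3 Mdr2+/-, 2 Mdr2+/+) and the mean and SD beside the points, on axes that start at 0. In every panel all Mdr2+/- points lie below both Mdr2+/+ points, and Mrpl52 shows the widest gap relative to the spread within a genotype.

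Most of these calls were lost without at least 1 of the 5 libraries. Mrpl52 passed the threshold whichever library was left out, with log2 fold changes of -0.43 to -0.35. In all, 3 members fell without Mdr2+/+ replicate 1 (Mrpl52, Mrps18c and Mrps21), which was 3.95% of the members against 2.47% of all tested genes. Without Mdr2+/+ replicate 2, 2 fell (Mrpl23 and Mrpl52), 2.63% against 2.82%, and without Mdr2+/- replicate 1, 2 fell (Mrpl52 and Mrps18c), 2.63% against 3.62%. Mrpl52 alone fell without Mdr2+/- replicate 2, 1.32% against 2.74%, and 6 fell without Mdr2+/- replicate 3 (Mrpl18, Mrpl52, Mrpl54, Mrps14, Mrps18c and Mrps36), 8.0% against 3.24%. Mrpl20 and Mrps22 were lost in each of the 5 fits. The 2 members called by DESeq2 were Mrpl52 (adjusted p = 0.00651) and Mrps18c (adjusted p = 0.0455).

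Promoter sequence is shown for the members that fell and whose window held a binding core of a known regulator of nuclear genes for mitochondria. Windows of 250 bases before to 50 after the start site came from RefSeq on GRCm38.p6 and were found for 67 of the 76 members. Both strands were searched for CCGGAAG, an ETS core of the kind bound by Gabpa, for TGCGCA, the core of Nrf1, for ATGGCG, the core of Yy1, which can also hold a start codon, and for TATAAA, the TATA box. No motif contains another, and TGCGCA reads the same on both strands. Matches are in capitals, with CTTCCGG the reverse complement of CCGGAAG. The Mrpl52 window (chr14:54426659-54426958, plus strand) held the ETS core at 2 places, and those of Mrps18c (chr5:100798509-100798808, plus strand) and Mrps22 (chr9:98601630-98601929, minus strand) held it at a single place. The Mrpl23 window (chr7:142532782-142533081, plus strand) held the Nrf1 core.
Mrpl52: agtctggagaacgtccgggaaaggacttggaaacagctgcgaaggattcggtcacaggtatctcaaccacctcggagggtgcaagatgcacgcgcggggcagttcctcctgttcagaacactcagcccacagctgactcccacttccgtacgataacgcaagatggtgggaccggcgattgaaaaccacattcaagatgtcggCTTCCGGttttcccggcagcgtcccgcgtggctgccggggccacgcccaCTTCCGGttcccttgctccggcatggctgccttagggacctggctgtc
Mrps18c: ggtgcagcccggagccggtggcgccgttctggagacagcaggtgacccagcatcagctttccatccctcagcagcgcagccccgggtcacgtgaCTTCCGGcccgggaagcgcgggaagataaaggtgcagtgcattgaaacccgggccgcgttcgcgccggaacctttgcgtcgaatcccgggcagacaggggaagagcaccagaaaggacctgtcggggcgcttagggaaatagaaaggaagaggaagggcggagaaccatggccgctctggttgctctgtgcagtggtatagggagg
Mrps22: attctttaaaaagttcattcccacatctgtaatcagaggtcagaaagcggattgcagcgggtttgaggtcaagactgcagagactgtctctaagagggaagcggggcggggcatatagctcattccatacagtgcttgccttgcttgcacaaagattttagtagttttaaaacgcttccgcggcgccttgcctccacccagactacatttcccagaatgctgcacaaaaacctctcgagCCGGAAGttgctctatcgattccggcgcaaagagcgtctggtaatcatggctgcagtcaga
Mrpl23: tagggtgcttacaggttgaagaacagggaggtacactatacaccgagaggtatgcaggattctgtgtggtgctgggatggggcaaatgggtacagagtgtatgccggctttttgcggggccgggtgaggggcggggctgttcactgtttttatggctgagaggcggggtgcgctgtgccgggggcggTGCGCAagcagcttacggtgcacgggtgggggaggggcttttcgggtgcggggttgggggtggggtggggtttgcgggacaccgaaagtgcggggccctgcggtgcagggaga

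The ETS core was present in 24 of the 67 member windows (35.8%), against 18.6% of the windows of 9489 tested genes and 8.86% of all 32851 windows in the table. For the Nrf1 core the numbers were 19 members (28.4%), 15.2% of tested genes and 7.76% of all windows. The Yy1 core was found in 18 members (26.9%), 16.7% of tested genes and 8.93% of all windows. A TATA box was found in 5 members (7.46%), 9.61% of tested genes and 13.6% of all windows. Of the 7 members that fell and had a window, 3 held the ETS core, 1 the Nrf1 core and 0 the Yy1 core or the TATA box. The median log2 fold change was -0.20 over the 24 members with the ETS core and -0.12 over the 43 without it. Over the 19 members with the Nrf1 core it was -0.10, and -0.20 over the 48 without. It was -0.15 over the 18 members with the Yy1 core and -0.16 over the 49 without, and -0.02 over the 5 with a TATA box and -0.17 over the 62 without. These differences between member medians were not tested, and a match of letters is not evidence of binding.

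The small and the large subunit were compared by symbol and by the place of the protein. By symbol, 4 of 29 small-subunit genes (13.8%) and 4 of 47 large-subunit genes (8.51%) fell, against 5.41% of all tested genes. Log2 fold changes were below 0 in 25 (86.2%) and 43 (91.5%) of them, against 50.4% of all tested genes. The medians were -0.16 for the small and -0.15 for the large subunit, a difference of -0.02, with an SD of 0.0182 between libraries. Small-subunit transcripts summed to 738.5, 770.5 and 770.7 CPM in Mdr2+/- livers, against 828.9 and 852.0 CPM in Mdr2+/+ livers. Large-subunit transcripts summed to 1591, 1624 and 1609 CPM in Mdr2+/- livers, against 1735 and 1783 CPM in Mdr2+/+ livers. Both sums separated the genotypes, while the ratio of small to large did not: it was 0.464, 0.475 and 0.479 in Mdr2+/- livers and 0.478 in both Mdr2+/+ livers.

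Symbols do not always match the subunit in which the protein sits. The proteins of Mrps18a and Mrps30 are found in the large subunit, and that of Mrps36 in neither. The groups were then formed with Mrps18a and Mrps30 moved to the large subunit and Mrps36 left out. Of 26 small-subunit genes 3 fell (11.5%, median -0.16), and of 49 large-subunit genes 4 did (8.16%, median -0.14). The share of all tested genes that fell was 5.41%. The difference of small minus large was then -0.025. The SD of 0.0182 came from the grouping by symbol and from single libraries, so it does not measure the error of this difference. By symbol, the sign of the difference changed with the replicate block and when single libraries were left out. Mrps18a had 18.7, 18.6 and 19.0 CPM in Mdr2+/- livers and 16.1 and 18.1 CPM in Mdr2+/+ livers, and Mrps30 had 34.0, 35.6 and 35.8 CPM in Mdr2+/- livers and 36.9 and 35.9 CPM in Mdr2+/+ livers. Neither passed the test (adjusted p = 0.356 and 0.673). Members were also divided by evolutionary origin. Of 48 relatives of bacterial proteins 4 fell (8.33%), and of 27 mitochondria-specific proteins 3 fell (11.1%), with a median of -0.15 in both.

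**Figure D3:**
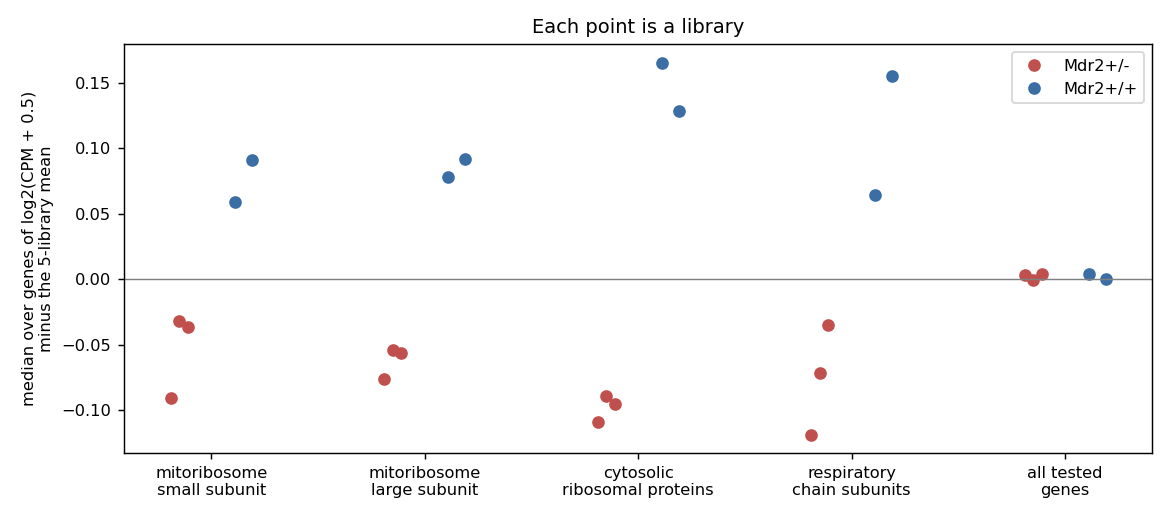
Median over the genes of a group of log2(CPM + 0.5) minus each gene's mean over the 5 libraries, with a point for each library. In both subunits the 3 Mdr2+/- libraries lie below 0 and the 2 Mdr2+/+ libraries above it, cytosolic ribosomal proteins and respiratory chain subunits show the same order, and the median over all tested genes stays near 0.

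Levels differed widely between members, and some abundant members showed no shift beyond their spread. Levels of different genes are given per kilobase of the annotated principal transcript, and over the 5 libraries they ran from 3.01 CPM per kilobase (Mrpl19) to 110 (Mrpl52), with a median of 22.0, leaving out Mrpl53. Mrpl52 averaged 98.2 CPM per kilobase in Mdr2+/- and 128 in Mdr2+/+ livers. Its principal transcript has 418 bases and its longest annotated transcript 856, so its top rank depends on the transcript taken. The next in order, Mrpl12, encodes the stalk protein of the large subunit, which in human cells also binds the mitochondrial RNA polymerase. It averaged 96.4 CPM per kilobase in Mdr2+/- and 97.3 in Mdr2+/+ livers. Its CPM was 128, 134 and 119 in Mdr2+/- livers and 123 and 133 in Mdr2+/+ livers, so that the genotypes overlapped (log2 fold change -0.01, adjusted p = 0.935). Mrpl14, the counterpart of bacterial L14 and the place where the assembly factor Malsu1 docks in human cells, had 45.6, 48.9 and 52.7 CPM in Mdr2+/- livers and 44.5 and 49.3 CPM in Mdr2+/+ livers. Its log2 fold change of 0.07 was smaller than its SE of 0.0813.

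In the small subunit the highest levels per kilobase were those of Mrps34, Mrps21 and Mrps28. Mrps34, which stabilises the small subunit in human cells, had 37.5, 37.6 and 36.5 CPM in Mdr2+/- livers and 39.3 and 37.4 CPM in Mdr2+/+ livers, with overlap between the genotypes (log2 fold change -0.05). Its exons overlap those of Nme3 on the same strand over 763 bases and those of Mapk8ip3 on the opposite strand over 1309 bases, so its level and rank are uncertain. Mrps28 had 28.3, 31.0 and 29.8 CPM in Mdr2+/- livers and 33.6 and 33.7 CPM in Mdr2+/+ livers. Its groups were apart, yet it did not pass (log2 fold change -0.18, adjusted p = 0.141). Mrps21, the counterpart of bacterial S21, had 17.3, 18.0 and 18.8 CPM in Mdr2+/- livers and 19.4 and 25.5 CPM in Mdr2+/+ livers. The wide Mdr2+/+ pair left its log2 fold change of -0.30 short of the threshold (SE 0.119, adjusted p = 0.130), although it was called when Mdr2+/+ replicate 1 was left out.

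The 8 members with a log2 fold change above 0 were Mrps23, Mrps18a, Mrps9, Mrpl9, Mrpl14, Mrps24, Mrpl16 and Mrpl28, and the smallest adjusted p among them was 0.356. Mrps23 had the highest value, 0.18 with an SE of 0.130. In 4 of them, Mrps18a, Mrps9, Mrpl9 and Mrps24, every Mdr2+/- library was above both Mdr2+/+ libraries. Mrps9 had 25.5, 26.4 and 24.9 CPM in Mdr2+/- livers and 23.8 and 23.6 CPM in Mdr2+/+ livers.

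Further members with a large negative log2 fold change that did not pass were Mrps11 (-0.28, adjusted p = 0.129), Mrps25 (-0.25, adjusted p = 0.120), Mrpl55 (-0.29, adjusted p = 0.0941) and Mrpl33 (-0.28, adjusted p = 0.0756), and all of them had groups that did not overlap. Mrpl53 cannot be compared: it was listed at 0 CPM in 3 libraries, at 1.40 CPM in Mdr2+/- replicate 3 and at 1.59 CPM in Mdr2+/+ replicate 1. Its exons overlap those of Ccdc142 on the same strand over 695 bases, so that its reads could be assigned to either gene. Exons of 25 members overlap another gene, mostly on the opposite strand, and the sources used here do not say whether counting used the strand. Of these 25 members 0 fell (median -0.12), and of the 51 without such an overlap 8 fell (15.7%, median -0.16), against 5.41% of all tested genes. Without Mdr2+/- replicate 3, 1 of 24 members with an overlap fell, against 3.24% of all tested genes. The difference between members with and without an overlap was not tested. Within an overlapping pair, Mrps11 had a log2 fold change of -0.28 and its neighbour on the opposite strand, Mrpl46, one of -0.02. Mrps25 had -0.25, while Nr2c2, whose exons it overlaps on the opposite strand, had 0.59 (adjusted p = 0.0675).

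Across the whole table, genes with short transcripts were lower and genes with long transcripts higher in Mdr2+/- livers. Over the 75 members with an annotated principal transcript, the rank correlation of its length with the log2 fold change was 0.22 (Spearman, across genes, which share the same 5 libraries). Over all 13571 tested genes with such a length it was 0.30. Members are mostly short: their median principal transcript had 1288 bases, against 2900 for all tested genes. Member values were therefore set beside those of all tested genes in the same class of length.

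In the classes up to 2000 bases the members' medians were near those of all genes of that length, while more of the members were below 0. Of the 24 members with up to 1000 bases, 6 fell, 21 were below 0 and 17 had all Mdr2+/- libraries below both Mdr2+/+ libraries, with a median of -0.21. Over all 1097 tested genes of that class the median was -0.19, and 14.5% fell, 74.3% were below 0 and 47.7% had such separate groups. Above 1000 and up to 2000 bases, 1 of 28 members fell (Mrps22), 23 were below 0 and 10 had separate groups, with a median of -0.07. Over the 2907 tested genes of that class the median was -0.08, and 9.12% fell, 65.0% were below 0 and 33.2% had separate groups.

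Above 2000 bases, the members and all genes of that length had medians of opposite sign. All 23 members with a principal transcript above 2000 bases had a log2 fold change below 0, from -0.32 to -0.04 with a median of -0.16. Over the 9567 tested genes of that class the median was 0.04, and 43.1% were below 0. Every Mdr2+/- library lay below both Mdr2+/+ libraries in 17 of the 23, against 16.5% of that class. Only Mrps14 of the 23 fell, against 3.24% of the class. The sum over the 23 was 765.7, 771.8 and 775.8 CPM in Mdr2+/- livers, against 845.8 and 874.2 CPM in Mdr2+/+ livers, without overlap. All tested genes of that length summed to more in Mdr2+/- livers, with 658200, 648400 and 640300 CPM, against 584100 and 609800 CPM in Mdr2+/+ livers. Both subunits contributed, with 9 small-subunit and 14 large-subunit members and medians of -0.16 and -0.15. The number below 0 was 21 of 23 without Mdr2+/+ replicate 2, 22 without Mdr2+/- replicate 2 and 23 without any other single library. A median below 0 in this class was not particular to the members. Of the cytosolic ribosomal protein genes above 2000 bases, 6 of 6 were below 0 (median -0.24). Of the respiratory chain subunit genes of that length, 6 of 8 were (median -0.11).

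**Figure D4:**
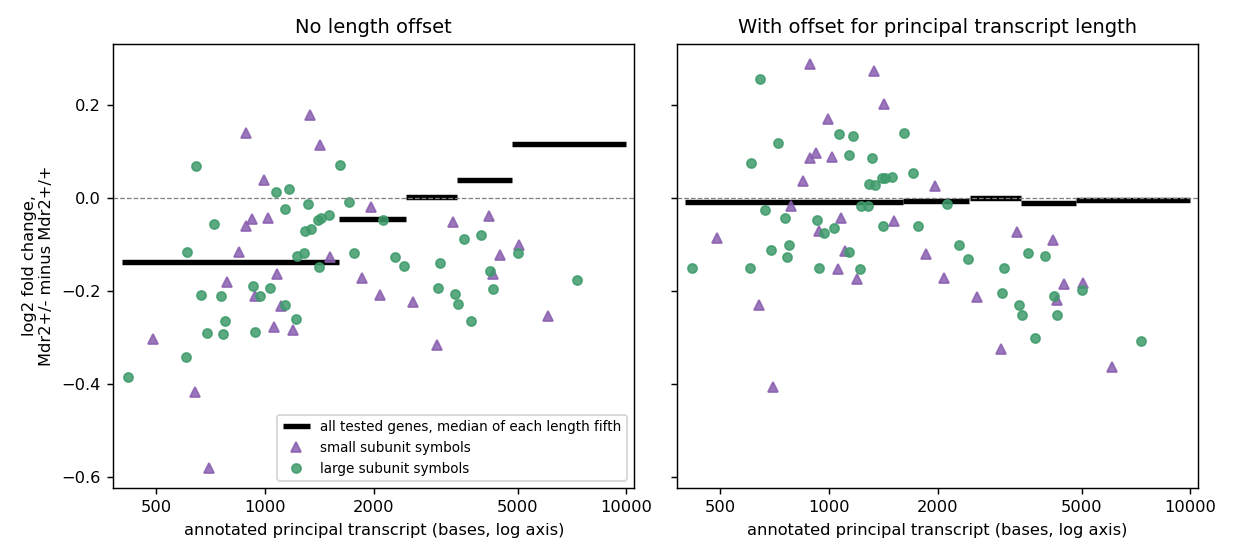
Log2 fold change of Mdr2+/- minus Mdr2+/+ livers against the length of the annotated principal transcript (log axis), without a length offset on the left and with it on the right. Triangles are small-subunit and circles large-subunit symbols. Black bars are medians of all tested genes in 5 classes of length with nearly equal numbers of genes, the outermost bars are cut near the ends of the axis, and Mrpl53 and Mrpl33 are not drawn. Without the offset the long members lie below the bars of their length. With it the bars are near 0, and the 23 members above 2000 bases are below 0 in both panels.

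An offset for principal transcript length, estimated for each library from all tested genes and chosen after the data were seen, brought the rank correlation over the members to -0.37, opposite in sign to that without the offset, and that over all genes to -0.01. Over the members it left a median of -0.08, with 4 members lower and 0 higher, against 3.95% lower and 4.85% higher over all tested genes. Of the 8 members called without the offset, Mrps14 was called again (log2 fold change -0.33, adjusted p = 0.0311), while Mrpl52 had -0.15 (adjusted p = 0.173) and Mrps18c -0.23 (adjusted p = 0.134). Mrps36 kept a log2 fold change of -0.41 without passing (adjusted p = 0.0883). The others called with the offset were Mrpl17 (-0.31, adjusted p = 0.0248), Mrpl35 (-0.30, adjusted p = 0.0412) and Mrps25 (-0.36, adjusted p = 0.0493), all above 2000 bases. The median was -0.06 over the members with up to 1000 bases, 0.03 over those above 1000 and up to 2000, and -0.20 above 2000. All 23 members above 2000 bases were below 0 with the offset, as they already were without it. In that class the offset moved the median of all genes down, from 0.04 to -0.0053. The sign of the 23 with the offset is therefore no separate check.

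Mrpl35, the counterpart of bacterial L35, had 30.7, 35.0 and 31.9 CPM in Mdr2+/- livers, against 39.0 and 39.2 CPM in Mdr2+/+ livers. Mrpl17, the counterpart of bacterial L17, had 56.8, 59.5 and 57.9 CPM in Mdr2+/- livers, against 63.1 and 68.2 CPM in Mdr2+/+ livers. Both pairs of groups were apart, and without the offset their log2 fold changes were -0.26 (adjusted p = 0.0525) and -0.18 (adjusted p = 0.110).

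The length assigned to a member mattered for these calls. The shortest coding transcript of Mrps14 has 787 bases and its longest annotated transcript 2999, and for Mrpl17 these are 1028 and 7300 bases. The gene counts do not tell which form the liver expressed. With the shortest coding transcript as the measure, 16 members remained above 2000 bases, with a median of -0.16, against 0.05 over 7412 tested genes. All 16 were below 0, but they are among the 23 above, with the same fold changes, so this is no separate check. By the shortest coding transcript, the 34 members with up to 1000 bases had a median of -0.20, against -0.11 over 2353 tested genes. Of these 34 members 30 were below 0, against 66.9%. The closeness of the short members' median to that of other short genes thus depended on which transcript set the length. An offset built on that length called 4 members lower, Mrpl35, Mrpl51, Mrpl52 and Mrps25, and 0 higher, against 4.24% lower and 5.42% higher over all tested genes. With the longest annotated transcript, 5 members were lower (Mrpl17, Mrpl23, Mrpl35, Mrps14 and Mrps22) and 0 higher, against 4.14% lower and 5% higher over all tested genes. With the length of all exons joined, 4 were lower (Mrpl17, Mrpl23, Mrpl52 and Mrps14), against 4.63% of all tested genes. No member was called with all 4 offsets: Mrpl35, Mrpl17 and Mrps14 were each called with 3 of them.

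Cytosolic ribosomal proteins, which build the ribosome outside mitochondria, shifted further than the mitochondrial ones. Of 78 genes 48 fell (61.5%, against 5.41% of all tested genes) and 0 rose, with a median log2 fold change of -0.25. They were shorter, with a median of 886.5 bases, and with the offset for principal length 10 fell (median -0.10), against 3.95% of all tested genes. Within the family, the shift without the offset was similar in each class of length. Its median was -0.25 over the 49 genes with up to 1000 bases. Above 1000 and up to 2000 bases it was -0.23 (23 genes), and above 2000 bases -0.24 (6 genes). With the offset these medians were -0.07, -0.14 and -0.28. The part of length in the shift of this family was not tested. Leaving out a single library left 17 to 29 that fell, lowest without Mdr2+/+ replicate 1. Nuclear-encoded respiratory chain subunits, which assemble with the products of the mitochondrial ribosome, had 24 of 77 tested genes that fell and 0 that rose (median -0.19), and 3 with the offset (median -0.05), a share near the 3.95% of all tested genes. For them the count without a single library was 3 to 14, lowest without Mdr2+/+ replicate 2, where 2.82% of all tested genes fell. No difference between these families was tested.

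Genes that act with the mitochondrial ribosome were mostly not called. Of 6 subunits that carry other names (Dap3, Ptcd3, Aurkaip1, Chchd1, Gadd45gip1 and Ict1) 0 passed, with a median of -0.07. Among 14 translation factors and activators 1 rose, among 25 assembly and rRNA modification factors 0 passed, among 17 mitochondrial tRNA synthetases 1 rose, and among 9 genes of mitochondrial DNA transcription and replication 1 rose. Of 9 regulators of nuclear genes for mitochondria, among them Nrf1, Gabpa and Yy1, 0 passed. The medians of the lists after the 6 other-named subunits ran from -0.01 to 0.09. Transcripts in these lists were longer, with median principal lengths of 1722 to 3656 bases, against 1288 for the members. With the offset for principal length the list medians ran from -0.02 to 0.13. A single called gene in lists of this size is near the share over all tested genes, 6.63% higher, and says nothing about a list. The single gene of the translation list that rose was Taco1, an activator of the translation of cytochrome oxidase subunit I. It had 14.8, 16.3 and 14.0 CPM in Mdr2+/- livers, against 7.40 and 10.1 CPM in Mdr2+/+ livers. The groups did not overlap (log2 fold change 0.80, SE 0.143, edgeR adjusted p = 0.00864), though the call was lost without Mdr2+/+ replicate 1 (0.57, adjusted p = 0.0606).

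Vars2, the mitochondrial valyl-tRNA synthetase, had 18.2, 16.0 and 18.2 CPM in Mdr2+/- livers and 13.1 CPM in both Mdr2+/+ livers (log2 fold change 0.41, edgeR adjusted p = 0.0314). Polg, the catalytic subunit of the mitochondrial DNA polymerase, had 44.1, 41.4 and 39.8 CPM in Mdr2+/- livers and 33.3 and 33.1 CPM in Mdr2+/+ livers (log2 fold change 0.33, edgeR adjusted p = 0.0193). With the offset for principal length neither was called: Vars2 had a log2 fold change of 0.35 (adjusted p = 0.0647) and Polg of 0.19 (adjusted p = 0.125). Vars2 kept its call when Mdr2+/- replicate 2 was left out (adjusted p = 0.0399) and lost it without Mdr2+/+ replicate 1, Mdr2+/+ replicate 2, Mdr2+/- replicate 1 or Mdr2+/- replicate 3 (adjusted p = 0.123, 0.100, 0.0658 and 0.0913). Polg was lost without Mdr2+/+ replicate 1, Mdr2+/+ replicate 2 or Mdr2+/- replicate 2 (adjusted p = 0.0884, 0.0762 and 0.0582). Transcripts encoded in mitochondrial DNA, among them the RNA of the ribosome itself, could not be compared. The symbols listed for them were not found among the genes counted.

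Markers of blood cells also differed between the genotypes. For comparison with the counts below, 5.41% of all tested genes fell and 6.63% rose. Erythroid markers summed to 969.1 to 1068 CPM in Mdr2+/- and 1592 to 1977 CPM in Mdr2+/+ livers, and 5 of 7 fell. Neutrophil markers summed to 351.8 to 450.6 CPM in Mdr2+/- and 108.1 to 158.4 CPM in Mdr2+/+ livers, and all 8 rose. B cell markers summed to 30.4 to 36.3 CPM in Mdr2+/- and 10.4 to 15.4 CPM in Mdr2+/+ livers, and 5 of 6 rose. Of 5 markers of cycling cells 2 fell, with sums of 245.5 to 259.0 CPM in Mdr2+/- and 280.5 to 344.0 CPM in Mdr2+/+ livers. The remaining lists, namely hepatocyte, Kupffer, T cell, cholangiocyte, stellate, endothelial and megakaryocyte markers, had at most 1 gene called in each direction. Of these, stellate markers summed to 455.4 to 470.8 CPM in Mdr2+/- and 353.1 to 376.6 CPM in Mdr2+/+ livers. Much of that sum was Reln, with 274, 280 and 250 CPM in Mdr2+/- and 188 and 197 CPM in Mdr2+/+ livers. Log2 fold changes were below 0 in 2 of the 5 stellate markers. T cell markers summed to only 4.65 to 4.95 CPM in Mdr2+/- and 5.38 to 7.20 CPM in Mdr2+/+ livers, and 3 of the 4 tested were below 0. The sums of the other lists overlapped between the genotypes. The part of these cells in the level of the mitochondrial ribosomal protein genes was not tested.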

How the data were processed

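Liver RNA libraries, 3 Mdr2+/- and 2 Mdr2+/+ by the genotype in their labels, were prepared by the submitters with a TruSeq RNA kit. The submitters' processing notes name TopHat and the build mm10. Which tool counted the reads, with which annotation and whether by strand, is not given in the sources used here. The deposited tables hold estimated counts per Ensembl gene, which the authors had not scaled for depth or length. Counts of 3 correspond to 0.175 to 0.252 CPM, a floor that covers counting error only. No libraries agreed within sampling noise (chi-square per degree of freedom 5.30 to 8.86 within and 18.3 to 25.8 between genotypes).

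Counts were rounded and filtered by filterByExpr (minimum 10) in edgeR 4.0.16 with R 4.3.3, scaled by TMM and compared by the two-sided quasi-likelihood test, with Benjamini-Hochberg adjustment over 13959 genes and a threshold of 0.05. Lengths and coordinates came from GENCODE M21 by Ensembl identifier, matched for 75 of 76 members, and length offsets from a loess fit (span 0.5) per library. Alternatives were other scalings and filters, DESeq2 1.42.0, a replicate block, offsets and leaving out each library. The members, the gene lists and the rule for naming genes were chosen with earlier results of these data known. That rule takes every member past the threshold, the 3 with the highest level per length and the 3 with the largest change among the others in each subunit, up to 3 called genes of each other list, and Abcb4. Other genes named were chosen after their values were seen. On simulated data with 13837 genes, genes given a log2 change of 0.5, 1 or 2 were recovered in 53.2%, 84.5% and 97.5% of cases, and 8.05% of calls fell on unchanged genes.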

Additional observations from a re-analysis of the deposited data

How the results depend on the processing

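The calls of single members depended on the setting. The 8 members that fell became 13 with scaling by library size alone, 2 with DESeq2, 5 with an offset for the longest transcript, 4 with each of the offsets for exon union, principal transcript and shortest coding transcript, and 1 to 6 when a library was left out. Without either Mdr2+/+ library, the remaining one is assumed to vary like the Mdr2+/- libraries. The counts with RLE scaling, either other filter, the replicate block and an offset for GC content were 7 to 9. Of the 13959 genes tested in the fit as reported, 750 fell with RLE scaling, 916 without a filter, 547 with the replicate block and 762 with the GC offset. With 10 counts required in every library, 778 of 12973 fell. No member rose under any of these alternatives at the adjusted threshold. At an unadjusted p under 0.05 the number was 0 in the fit as reported, and the share of all tested genes at that level is not given here. The members' median of -0.15 stayed below 0 under all 16 alternatives. It was -0.19 with library size alone, -0.10 with the longest, -0.11 with the exon union, -0.081 with the principal and -0.10 with the shortest coding length, and -0.16 to -0.12 when a library was left out. The difference of small minus large subunit had no stable sign: it was 0.024 with the replicate block (a pairing by number with no basis in the labels, and with correlations of only 0.03 between same-numbered libraries), 0.012 with the longest-length offset and -0.038 to 0.032 when a library was left out. Signs also turned for genes near 0. Mrps34 had 0.011, 0.020, 0.097 and 0.031 with the longest, exon union, principal and shortest coding offsets. Mrpl12 had 0.092, 0.083, 0.086 and 0.037 with the same offsets, 0.030 with the replicate block and -0.070 to 0.044 when a library was left out, above 0 without Mdr2+/+ replicate 2 or Mdr2+/- replicate 3. When a library was left out Mrpl14 ran from -0.0085 to 0.145 and Mrpl53, which had reads in only 2 libraries, from -1.62 to 5.92, each turning sign without Mdr2+/+ replicate 1. The cause of these changes was not tested. The offsets for principal and shortest coding length were chosen after seeing the data.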
